A study of Mus musculus with 132 samples.

Results

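The transcriptomes of single cells from 8-cell mouse embryos cultured with a miR-381-3p mimic were compared with those of 8-cell embryos cultured with a scrambled control mimic. Cells were taken by their labelled stage and treatment, which gave 54 of the 132 cells of the series, 24 of them mimic-treated and 30 control. The remaining 78 cells came from the 32-cell stage, 39 of them control and 39 mimic-treated. All embryos came from matings of superovulated F1 females with F1 males, both C57BL/6 x DBA in the labels and C57BL/6NCrl x DBA/2NHsd in the study's methods. They were flushed at the 2-cell stage (E1.5) and cultured in KSOM medium, and mimic or scrambled control was added straight to the medium droplet, without injection or a transfection step. The labels give a final concentration of 5 or 10 µM without saying which applies to which cell. The study's text gives 10 µM for the 8-cell stage and 5 µM for the 32-cell stage. At E2.5 the zona was digested, the embryos were dissociated and each cell was picked by hand into Smart-seq2 lysis buffer, so each library is 1 cell. Each group held cells of 3 to 5 embryos, but no label says which cell came from which embryo. Each group was therefore treated as 1 sample, no test between the groups could be made, and every difference below is a description of these 54 cells.

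The 8-cell stage follows the major wave of mouse embryonic genome activation and precedes the split into inner cell mass and trophectoderm. Blastomeres flatten against each other and acquire an apical pole at this stage, while maternal transcripts are still being cleared and the pluripotency factors of the later inner cell mass are already transcribed. A microRNA guides Argonaute to messenger RNAs whose 3′ untranslated region (UTR) pairs with its seed, bases 2 to 8, and the outcome is usually lower translation and a modest loss of the paired transcript. A mimic is a synthetic duplex that loads the same guide strand. Poly(A)-primed libraries do not capture a mature microRNA, so the amount of miR-381-3p in these cells was not measured.

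The mature strand is shown first because the seed decides which transcripts can pair with it. It is encoded on mouse chromosome 12 at chr12:109726870-109726891, plus strand, in the GRCm38.p6 build (RefSeq), with the seed in capitals.
miR-381-3p: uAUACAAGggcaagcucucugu
A full match in a transcript reads CTTGTATA, with an A opposite base 1. Sites of 7 bases lack either that A (CTTGTAT) or the pairing with base 8 (TTGTATA), and sites of 6 bases lack both (TTGTAT). For every gene the longest 3′ UTR in the annotation (GENCODE M21, GRCm38) was searched on its own strand, and a gene was placed in the class of its longest match. An 8-base match was present in 3.12% of the 3′ UTRs of all genes in the table and in 4.04% of those of the genes compared here. Sites are printed for genes with an 8-base match that lay lowest in mimic cells (Id2, Mpp3, Slc16a13, Rnf2, Eif4ebp2) or among those highest (Pde7a, Chd2, Ptk2). They are also printed for trophectoderm genes that the study lists as predicted targets of several inner cell mass microRNAs, miR-381-3p among them (Tet2, Tead1, Gata3). Of these, only Tead1 is given in the study's text as a predicted target of miR-381-3p on its own. Capitals mark the match, and the coordinates are those of the match in GRCm38.
Id2, chr12:25094056-25094063, minus strand: ttagagttttCTTGTATAgtggcaga
Mpp3, chr11:102017353-102017360, minus strand: ctacagtgtaCTTGTATAcattaaat
Slc16a13, chr11:70217407-70217414, minus strand: gctggtgtccCTTGTATAtcaaacaa
Rnf2, chr1:151470766-151470773, minus strand: cccttgaagtCTTGTATAtttatagt
Eif4ebp2, chr10:61430957-61430964, minus strand: tgtcctttggCTTGTATAggttatct
Pde7a, chr3:19225828-19225835, minus strand: tttggtcattCTTGTATAgcatttgt
Chd2, chr7:73426667-73426674, minus strand: ttttttgattCTTGTATAttaaaaag
Ptk2, chr15:73205904-73205911, minus strand: gaaagtctctCTTGTATAagtttcat
Tet2, chr3:133464747-133464754, minus strand: tcgtagtttgCTTGTATAtgtactga
Tead1, chr7:112904339-112904345, plus strand: caaccgcaggCTTGTATtcatgaga
Gata3, chr2:9857529-9857535, minus strand: gactgaattgTTGTATAaatttatt
All of these sites lie in annotated 3′ UTRs. A match is a description of the sequence and does not show that the transcript was bound.

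Depth was similar in the 2 groups. A control cell held between 544866 and 2334697 counts, with a median of 1232014, and a mimic cell between 642262 and 2066661, with a median of 1280605. The control cells had counts in 6373 to 7366 genes. Of the mimic cells, 21 had counts in 5963 to 7492 genes, and the cells numbered 64, 65 and 81 in the labels stood apart with 4881, 3243 and 4614 genes, at totals of 1304051, 1764775 and 1041987 counts. These 3 cells are kept in the main values, and results are also given for the other 21 mimic cells with the 30 control cells. Mitochondrial transcripts took 3.40 to 7.34% of the counts of control cells and 1.54 to 7.24% of those of mimic cells. They were left out before CPM (counts scaled to the same total in every cell) were computed.

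**Figure D1:**
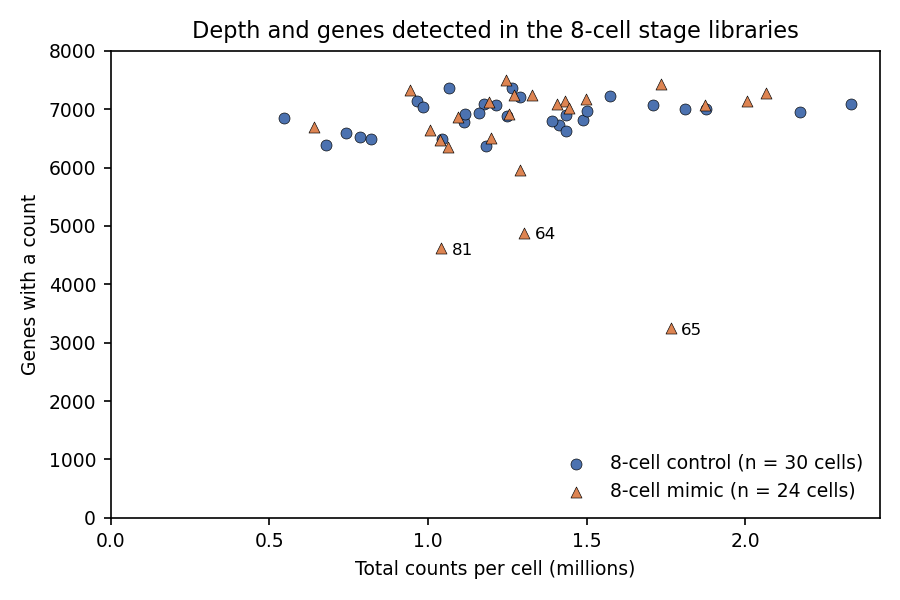
Genes with a count (vertical axis) against total counts (horizontal axis) for each 8-cell stage library, with control cells as circles (n = 30) and mimic cells as triangles (n = 24). Mimic cells 64, 65 and 81 lie at 4881, 3243 and 4614 genes, below all other cells, at totals within the range of the others.

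Xist, transcribed from the inactive X chromosome, and the summed counts of 4 Y-linked genes (Ddx3y, Eif2s3y, Kdm5d and Uty) were used to see whether both groups held embryos of both sexes. Y-linked transcripts were above Xist in 7 control cells of 30 (23.3%) and in 7 mimic cells of 24 (29.2%). Cells of 1 embryo share its sex, so these shares count cells and not embryos. Xist was at 20 CPM or more without Y-linked transcripts at that level in 23 control and 11 mimic cells. In 3 mimic cells both passed 20 CPM with Xist higher, and in the 3 mimic cells with few genes neither did.

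The cells carry consecutive numbers in their labels that fall into runs of up to 8 cells: control 1 to 8, 9 to 16, 17 to 24, 25 to 30 and the pair 87 and 88, and mimic 63 to 70, 71 to 78 and 79 to 86. No label says what a run is. All 7 control cells with Y-linked transcripts above Xist are those of run 9 to 16, and all 7 such mimic cells are in run 79 to 86. On the first principal component of log2(CPM + 1) without the 3 cells with few genes (4.61% of the variance), control runs 1 to 8 and 9 to 16 lay between -60.9 and -37.7. Control run 17 to 24 lay between 15.04 and 29.2, among the mimic cells, whose median was 25.5. The spread of the pooled level over these runs is given for some of the genes that follow, and whether the runs overlapped is given for all named genes past 2-fold. Across all pairs of cells the correlation of log2(CPM + 1) over genes had a median of 0.514 within control, 0.4998 within mimic and 0.492 between the groups, and no pair exceeded 0.599. No library therefore appears more than once. What part the 3 cells with few genes, the sex of the embryos and the runs have in the differences was not tested beyond leaving cells out.

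Transcripts of the intended cells were present, and those of other cells were close to absent. The 22 pluripotency factors summed to 11513 CPM over control cells and 10582 over mimic cells. The 15 cumulus and granulosa cell markers, which would show carry-over of the follicle cells that surround the egg, summed to 0.0817 CPM in control and 0.0647 CPM in mimic, and 11 of them had 0 counts. Of 12 sperm and testis markers 9 had 0 counts, and the summed level of 34.3 CPM in control and 43.6 in mimic was nearly all Odf2. The 16 markers of oviduct, uterus and blood cells summed to 39.0 and 40.1 CPM, with 5 of them at 0 counts and only Epcam at 20 CPM.

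In pooled counts, differences between the groups were small for most genes and fell about equally in both directions. Counts were summed over the cells of a group, and the log2 change is that of the pooled CPM + 1 in mimic over control. Of 6570 genes with at least 20 CPM in either group, 457 were past 2-fold higher in mimic cells (6.96%) and 400 past 2-fold lower (6.09%), 13% in all. The median change was 0.03 and the median absolute change 0.38, and 66 genes were past 4-fold higher and 55 past 4-fold lower. With mean log2 values of the cells in place of pooled counts, 494 genes were past 2-fold higher and 966 lower, so this balance depends on pooling. Without the 3 cells with few genes, 434 of 6601 genes were past 2-fold higher (6.57%) and 394 lower (5.97%), and 310 of the 457 and 319 of the 400 were among them. No gene separated the groups cell by cell: none had every mimic cell above, or below, every control cell. Among the 720 pairs of a mimic and a control cell, the share in which the mimic cell was higher ranged from 3.61 to 94.2% over genes, with a median of 49.0%.

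Past 2-fold were 652 of 2684 genes (24.3%) with a mean of both groups under 50 CPM, 189 of 2698 (7.01%) at 50 to 200 CPM, and 16 of 1188 (1.35%) at 200 CPM and over. Genes entered with 20 CPM in either group, so a gene with a low mean could pass through the group where it was high, and the share in the lowest class is set in part by this minimum. Taking the runs of label numbers as they are, 1.63% of the 6570 genes were past 2-fold higher with every mimic run above every control run, and 1.35% were past 2-fold lower with every mimic run below every control run. Whatever the size of the change, these shares were 3.62% and 2.62%.

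**Figure D2:**
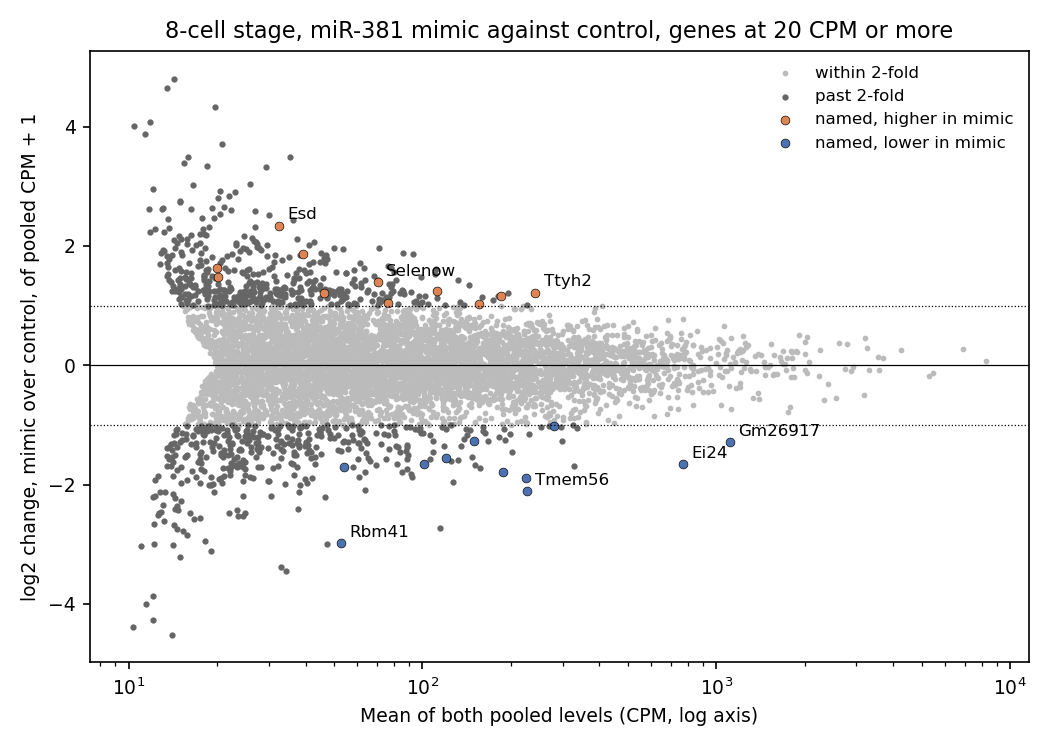
log2 change of pooled CPM + 1, mimic over control (vertical axis), against the mean pooled level in CPM (horizontal log axis) for the 6570 genes with at least 20 CPM in either group. Dotted lines mark 2-fold, and the 11 genes with the highest and the 11 with the lowest share of cell pairs among genes past 2-fold are coloured, with 7 named. Under 50 CPM, where the minimum of 20 CPM in either group bounds the points, 24.3% of genes are past 2-fold.

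Among genes past 2-fold, the 11 genes farthest below an even share of cell pairs were 2310040G24Rik, H2afx, Ei24, Fcgr3, Tmem56, Gm26917, Rbm41, Gm10260, Tmem97, Rnf2 and Cth, with the mimic cell higher in 5.42 to 12.9% of pairs. Ei24, a p53-induced endoplasmic reticulum membrane protein with a role in autophagy, ranged from 499 to 2354 CPM in control cells, with a median of 1148, and from 10.1 to 915 CPM in mimic cells, with a median of 293. Most mimic cells lay below the lowest control cell, and the ranges overlapped. Its pooled level was 1171 CPM in control (exact Poisson 95% interval 1160.1 to 1182) and 369.7 CPM in mimic (363 to 377), 3.17-fold lower. Such intervals cover counting error only, because PCR copies in these libraries cannot be told from separate molecules. By run, Ei24 lay at 659.8 to 1698 CPM over the control runs and 183 to 455 over the mimic runs, without overlap.

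H2afx encodes histone H2AX, which is phosphorylated around DNA double-strand breaks. It ranged from 24.6 to 471 CPM in control cells, with a median of 160.999, and from 0 to 133 CPM in mimic cells, with a median of 64.1. Pooled, it was 2.96-fold lower (179 CPM in control and 60.6 in mimic), and its log2 change of -1.55 was -1.49 without the 3 cells with few genes. The runs overlapped, at 54.8 to 252 CPM over the control runs and 44.3 to 80.3 over the mimic runs.

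Rnf2 encodes RING1B, the catalytic subunit of Polycomb repressive complex 1 that ubiquitylates histone H2A, and it carries the 8-base site printed above at base 543 of a 3′ UTR of 1911 bases. It ranged from 60.9 to 777 CPM in control cells, with a median of 364, and from 0 to 421 CPM in mimic cells, with a median of 63.2. All 30 control cells and 22 of 24 mimic cells had a count. The pooled level was 3.74-fold lower (355 CPM in control and 94.8 in mimic), the runs did not overlap (238 to 479 CPM over the control runs and 72.9 to 125 over the mimic runs), and the change was past 2-fold under all 18 alternatives that could alter it.

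Fcgr3, a low-affinity receptor for IgG better known from leukocytes, ranged from 51.7 to 548 CPM in control cells, with a median of 265, and from 0 to 282 CPM in mimic cells, with a median of 72.4. It was 3.47-fold lower in mimic cells, at 223 to 356 CPM over the control runs and 46.3 to 128 over the mimic runs. Tmem56, which encodes a membrane protein with a TLC domain, was 4.36-fold lower (368 CPM in control and 84.4 in mimic), and 19 of 24 mimic cells had a count against all 30 control cells. Both stayed past 2-fold under all 18 alternatives.

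2 neighbouring transcripts on chromosome 6 were low together. 2310040G24Rik, annotated as a long intergenic non-coding RNA at chr6:86483376-86488227 on the minus strand, ranged from 65.2 to 398 CPM in control cells, with a median of 144.7, and from 0 to 126 CPM in mimic cells, with a median of 45.5. A430078I02Rik, annotated as an antisense transcript at chr6:86470277-86480830 on the same strand, had counts in 26 of 30 control and 6 of 24 mimic cells. Pooled, 2310040G24Rik was 3.19-fold and A430078I02Rik 12.6-fold lower in mimic cells. The run levels of 2310040G24Rik were 105.8 to 321 CPM over the control runs and 1.47 to 68.3 over the mimic runs, lowest in run 79 to 86, and those of A430078I02Rik were 2.48 to 45.2 CPM over the control runs and 0 to 3.42 over the mimic runs, with overlap. Smart-seq2 does not mark strand, so reads of overlapping genes on the other strand cannot be told apart from theirs.

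Cth encodes cystathionine gamma-lyase, an enzyme of amino acid metabolism that makes cysteine. It was 2.04-fold lower (375 CPM in control and 184 in mimic), close to the 2-fold limit, and passed it under 11 of 18 alternatives.

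Rbm41, an X-linked gene for an RNA-binding protein, had the largest difference in detection of all genes compared. It was 8.51-fold lower pooled (94.4 CPM in control and 11.1 in mimic), with run levels of 8.13 to 173 CPM over the control runs and 1.35 to 19.96 over the mimic runs. Tmem97, the sigma-2 receptor involved in cholesterol transport, was 2.42-fold lower (212 CPM in control and 87.7 in mimic). Gm10260, a predicted gene, was 3.35-fold lower (83.3 CPM in control and 24.9 in mimic). Its run levels were 57.6 to 105.3 CPM over the control runs and 0.368 to 68.3 over the mimic runs, with mimic run 63 to 70 inside the control range, and its log2 change lay between -6.17 and -1.09 over the alternatives. Gm26917, at chr17:39843013-39846341, was 2.45-fold lower (1575 CPM in control and 643 in mimic). Gm26917 is annotated as a long intergenic non-coding RNA and is known to overlap ribosomal RNA repeat sequence. It passed 2-fold under 16 of 18 alternatives.

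The 12 genes farthest above an even share of pairs were Ttyh2, Selenow, Gm7792, Pcbp2, Esd, Gm13212, Snw1, Cuta, Anp32a, Ric1, Tmem147 and Mrpl38, with the mimic cell higher in 79.3 to 88.1% of pairs. Ttyh2, a tweety family membrane protein related to anion channels, ranged from 0 to 359 CPM in control cells, with a median of 127, and from 51.2 to 636 CPM in mimic cells, with a median of 289.6. It had the highest share of pairs among genes past 2-fold and was 2.34-fold higher pooled, at 145.3 CPM in control (141.4 to 149.3) and 339 CPM in mimic (333 to 346). By run the levels were 20.5 to 197 CPM over the control runs and 316 to 353 over the mimic runs, without overlap. It was past 2-fold under 17 of 18 alternatives, and the exception was its change of 0.66 among the cells with Y-linked transcripts above Xist.

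Selenow encodes selenoprotein W, a small redox protein. It ranged from 5.28 to 115.9 CPM in control cells, with a median of 31.8, and from 19.04 to 295 CPM in mimic cells, with a median of 97.1. All cells of both groups had a count, and the pooled level was 2.67-fold higher (38.4 CPM in control and 102.5 in mimic). Esd, S-formylglutathione hydrolase, had counts in 14 of 30 control and 22 of 24 mimic cells and was 5.47-fold higher pooled (10.04 CPM in control and 54.9 in mimic), the largest ratio of these 12. Without the 3 cells with few genes its log2 change was 1.93 in place of 2.34.

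Pcbp2, a poly(C)-binding protein of mRNA stability and translation, was 2.05-fold higher (101.9 CPM in control and 208 in mimic) and just under the limit, at log2 0.98, without the 3 cells with few genes. Snw1, a splicing factor and transcriptional coactivator, was 2.24-fold higher (114.6 CPM in control and 257 in mimic). Mrpl38, of the large subunit of the mitochondrial ribosome, was 4.18-fold higher (10.7 CPM in control and 44.6 in mimic).

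Tmem147, an endoplasmic reticulum protein of the translocon, had counts in 14 of 30 control and 21 of 24 mimic cells and was 3.83-fold higher. Ric1, a subunit of the exchange factor for RAB6A, was 2.37-fold higher and past 2-fold under all 18 alternatives. Anp32a, an acidic nuclear phosphoprotein, was 2.96-fold, and Cuta, which helps to anchor acetylcholinesterase, 2.08-fold higher, the latter at log2 0.85 without the 3 cells with few genes. Gm7792 and Gm13212 are predicted genes with changes of 1.64 and 1.25. Both groups overlapped for all 12 genes.

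**Figure D3:**
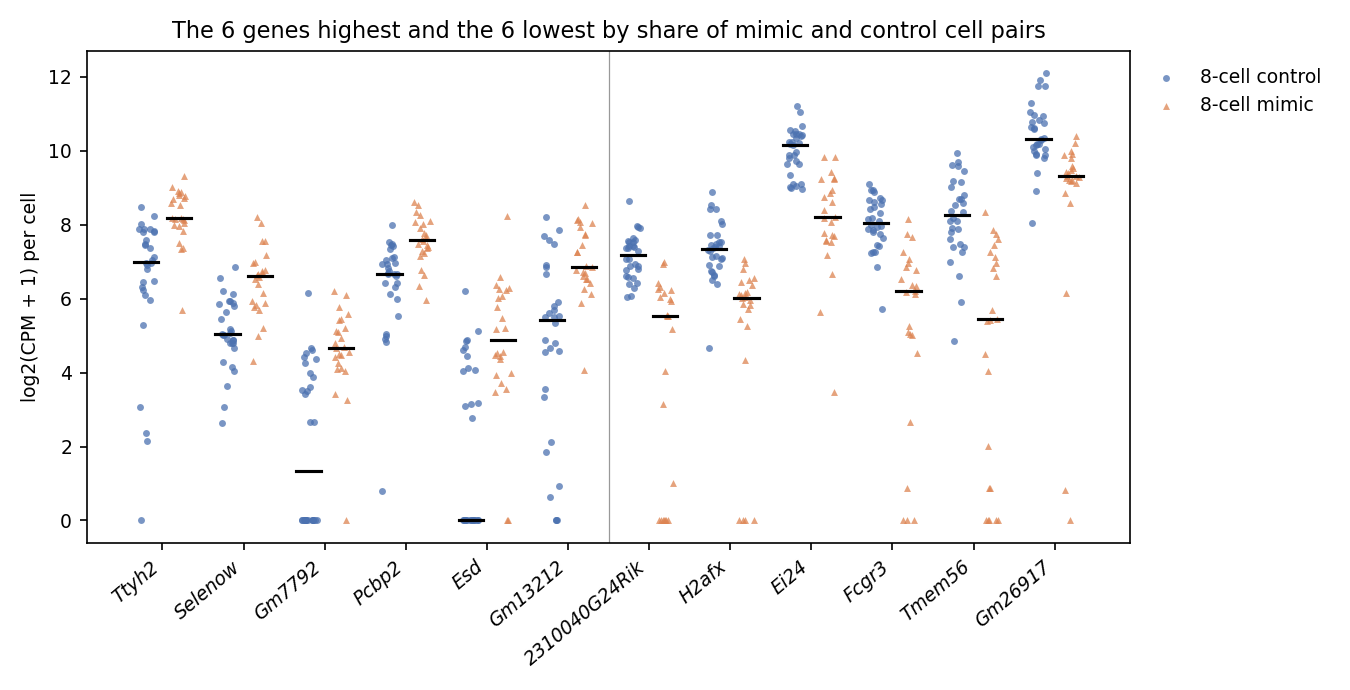
log2(CPM + 1) in each cell (vertical axis) for the 6 genes with the highest and the 6 with the lowest share of cell pairs among genes past 2-fold, with control cells as circles (n = 30), mimic cells as triangles (n = 24) and black lines at the medians. For Ei24 the medians are 1148 and 293 CPM, and in every gene shown the cells of the groups overlap.

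Some abundant genes separated the cells as well as those past 2-fold, or better, while lying within 2-fold. Impdh2, the rate-limiting enzyme of guanine nucleotide synthesis, was higher in the mimic cell in 94.2% of pairs at 1698 CPM in control and 2368 in mimic, a log2 change of 0.48 and the highest share of pairs of all genes compared. Eif5a, a translation factor, reached 87.2% (2694 CPM in control and 3700.2 in mimic). In the other direction stood the cap-binding factor Eif4e with 11.8% (1402 CPM in control and 847 in mimic), the serine synthesis enzyme Psat1 with 13.3% (1021 CPM in control and 641 in mimic) and the chaperone Hspa8 with 14.9% (3721 CPM in control and 2638 in mimic). The lowest share of all, 3.61%, was that of AY036118 on chromosome 17, which was looked up after its value was seen.

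Detection, the share of cells with any count of a gene, was compared after each cell was thinned to 500000 counts, which left out no cell. The binomial intervals given with these shares cover counting error over the cells alone. Cells of 1 embryo are not independent, so the intervals do not compare the conditions. Of the 6570 genes, 1.02% were detected in a share of mimic cells at least 30 percentage points higher than in control and 2.36% in a share at least 30 points lower. Without the 3 mimic cells with few genes this balance turned, with 2.01% of 6601 genes higher and 1.39% lower. With unthinned counts of all cells the shares were 0.898% and 2.05%.

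Cbr2, a carbonyl reductase, had the largest difference among genes detected in more mimic cells. It had a count in 2 of 30 control cells (6.67%, exact binomial 95% interval from 0.818 up to 22.1%) and in 16 of the 24 mimic cells (66.7%, 44.7 to 84.4%), both thinned and unthinned. Its pooled level was 2.91 CPM in control and 23.2 in mimic. Adat3, a subunit of the tRNA adenosine deaminase, was detected in 5 of 30 control cells (16.7%, exact binomial 95% interval from 5.64 up to 34.7%) and in 16 of the 24 mimic cells (66.7%, 44.7 to 84.4%). Ppp3r1, the regulatory subunit of calcineurin, was detected in 33.3% of control and 87.5% of mimic cells. Myo10, the filopodial myosin, followed with 26.7% and 75%. Cbr2 and Adat3 were in few control cells, whereas Mrpl38, also among the 5 genes with the largest difference in this direction, was in 14 of 30.

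The largest differences in the other direction were those of Rbm41, A430078I02Rik, Prrc1, Lgals3 and Ifitm2. Rbm41 was detected in 28 of 30 control cells (93.3%, exact binomial 95% interval from 77.9 up to 99.2%) and in 7 of the 24 mimic cells (29.2%, 12.6 to 51.1%) after thinning, and in 28 and 9 cells before it. Lgals3, the carbohydrate-binding galectin 3, was detected in 28 of 30 control cells (93.3%, exact binomial 95% interval from 77.9 up to 99.2%) and in 10 of the 24 mimic cells (41.7%, 22.1 to 63.4%), and its pooled level was 4.85-fold lower. Ifitm2, an interferon-inducible membrane protein, was detected in 80% of control and 29.2% of mimic cells. Prrc1, a proline-rich coiled-coil protein, was detected in 76.7% and 25%. Without the 3 cells with few genes the 5 differences lay between -64.8 and -46.7 points.

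Gene lists are described by how many of their members at 20 CPM were past 2-fold, beside 6.96% higher and 6.09% lower over all genes, and by the median log2 change of these members, beside 0.03 over all genes. The range after each median is that over the 21 alternatives of processing and of cells left out.

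Most ribosomal protein genes had a log2 change above 0. Of 85 genes 84 were at 20 CPM, 77 of them lay above 0 and 7 below, the median was 0.28 (0.16 to 0.50), and none was past 2-fold. Over all genes 52% lay above 0 and 48% below. Their sum was 29492 CPM over control cells and 35297 over mimic cells, and per cell it ranged over 22396 to 38291 CPM and 26365 to 54306 CPM. The highest sums included mimic cell 65, a cell with few genes, at 52420 CPM, and the median without the 3 such cells was 0.24. Rpl4 and Rplp0 were at log2 0.23 and 0.24, whereas Rpl41 was at -0.19.

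Translation initiation factors had a median of 0.04 (-0.05 to 0.11) over 49 of 56 genes, with 28 above 0 and 21 below. Eif4ebp2, an inhibitor of the cap-binding protein eIF4E whose transcript carries an 8-base site, was 2.77-fold lower (77.7 CPM in control and 28.05 in mimic) and past 2-fold under all 18 alternatives. Y-linked Eif2s3y was also past 2-fold lower (-1.46), but its direction turned without control run 9 to 16, the run of all control cells with Y-linked transcripts above Xist (3.85), and it passed 2-fold in its direction under 11 of 18 alternatives. Eif4e3 and Eif5a2 were past 2-fold higher in all cells but at log2 -0.03 and 0.41 without the 3 cells with few genes.

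Proteasome subunits had 30 of 41 measured members above 0, a median of 0.17 (0.07 to 0.22), 4 past 2-fold higher and none lower. The 4 were the activators Psme4 (80.8 CPM in control, 207 in mimic, log2 1.34) and Psme1 (12.5 CPM in control, 28.8 in mimic, log2 1.14), the inhibitor Psmf1 (31.1 CPM in control, 74.1 in mimic, log2 1.23) and the assembly chaperone Psmd10 (24.8 CPM in control, 64.5 in mimic, log2 1.34). None of these is a subunit of the proteolytic core. Psmd10 lay at log2 -0.29 without mimic cells 63 to 70, so it rested on that run, whose level was 150.5 CPM. The abundant members Psma6, Psma7 and Psmd4 were at log2 0.02, -0.04 and -0.02.

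Nanog and Klf4 were the 2 pluripotency factors past 2-fold lower. The median of 19 of 22 members, 9 above 0 and 10 below, was -0.13 (-0.36 to 0.02), with 1 past 2-fold higher and 2 lower. Nanog, the homeodomain factor of the naive epiblast, ranged from 0 to 335 CPM in control cells, with a median of 52.5, and from 0 to 168.2 CPM in mimic cells, with a median of 17.8. Its pooled level was 3.12-fold lower (100.4 CPM in control and 32.2 in mimic) and 23 of 30 control and 17 of 24 mimic cells had a count, so the groups overlapped widely. By run it lay at 16.4 to 183 CPM over the control runs and 26.2 to 40.3 over the mimic runs. The level in the lowest control run was below that of all mimic runs.

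Klf4, a Krüppel-like factor of the same network, ranged from 0 to 162.6 CPM in control cells, with a median of 33.8, and from 0 to 42.8 CPM in mimic cells, with a median of 3.58. It was 3.98-fold lower pooled, the runs did not overlap (21.4 to 70.5 CPM over the control runs and 5.76 to 17.3 over the mimic runs), and it was past 2-fold under all 18 alternatives, as was Nanog. Pou5f1, which encodes OCT4, was within 2-fold at 339 CPM in control and 272 in mimic (log2 -0.32), with runs at 312 to 357 CPM over the control runs and 239 to 307 over the mimic runs. Dppa5a was at log2 -0.44. Sox2 was barely transcribed, with 0 counts in control, which allows up to 0.0817 CPM over the pooled cells, and 7 counts in mimic. Stat3, the effector of LIF signalling, was just past 2-fold higher at 13.3 CPM in control and 27.9 in mimic and below it, at log2 0.87, without the 3 cells with few genes. It passed 2-fold under 8 of 18 alternatives.

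Few lineage markers were measurable at this stage. Of 9 inner cell mass markers 6 were at 20 CPM, 5 of them below 0 and 1 above, at log2 0.92. The median of these members was -0.68 (-1.42 to -0.17). The markers summed to 2145 CPM over control cells and 1444 over mimic cells, and per cell the sums overlapped (454 to 2992 CPM and 659 to 2835 CPM). Besides Nanog, the ETS factor Spic was at 1269 CPM in control, 801 in mimic, log2 -0.66, and the NODAL co-receptor Tdgf1 at 504 CPM in control, 288 in mimic, log2 -0.81. Gata6, a factor of the primitive endoderm, was at 113.1 CPM in control, 104.7 in mimic, log2 -0.11.

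Of 9 trophectoderm markers 6 were at 20 CPM, 4 above 0 and 2 below, with 1 past 2-fold higher and 1 lower and a median of 0.46 (0.23 to 0.68). Their sum was 363 CPM over control cells and 485 over mimic cells, and per cell 0 to 926 CPM and 54.7 to 1415 CPM. The simple epithelial keratins Krt18 and Krt8 were at 47.6 CPM in control, 105.98 in mimic, log2 1.14, and 50.9 CPM in control, 85.4 in mimic, log2 0.73. Krt18 passed 2-fold under 10 of 18 alternatives. Gata3, an early trophectoderm factor with the 7-base site printed above, was at 76.7 CPM in control, 110.7 in mimic, log2 0.52, with counts in 22 of 30 and 22 of 24 cells. Id2, an inhibitor of basic helix-loop-helix factors, had counts in 9 control cells and 1 mimic cell, at 20.7 and 0.0324 CPM. The mimic level is 1 count, and the ratio of mimic to control lay between 3.96e-05 and 0.00875 by counting error alone. The counts of control cells lay mostly in run 25 to 30, at 92.8 CPM, and the log2 change lay between -7.29 and -1.46 over the alternatives.

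The wider list of trophectoderm genes had a median of 0.35 (-0.54 to 0.49) over 9 of 20 members. Of these, 5 lay above 0 and 4 below, with 1 past 2-fold higher and 1 lower, and the sum of the list was 1619 CPM over control cells and 1488 over mimic cells, in the other direction from its median. Cdx2, the caudal factor of that lineage, was below 20 CPM in both groups (10.2 CPM in control and 12.8 in mimic) with counts in 7 and 8 cells, and Gata2 had 0 counts in either group. Tead4, which acts upstream of Cdx2, was at 644 CPM in control, 503 in mimic, log2 -0.36, and Hand1 at 265 CPM in control, 158.03 in mimic, log2 -0.74. The primitive endoderm list had 5 of 18 members at 20 CPM, none past 2-fold and a median of -0.13 (-0.93 to 0.12).

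Hippo signalling keeps the TEAD coactivator YAP out of the nucleus in inside cells. Of 28 genes of this pathway 20 were at 20 CPM, with 4 past 2-fold higher, 1 lower and a median of 0.06 (-0.35 to 0.07). Lats2, the kinase that phosphorylates YAP, ranged from 0 to 182 CPM in control cells, with a median of 27.8, and from 0 to 342 CPM in mimic cells, with a median of 81.3. It was 2.72-fold higher (43.7 CPM in control and 119 in mimic), without overlap of the runs (15.1 to 66.5 CPM over the control runs and 82.2 to 145.3 over the mimic runs), and past 2-fold under all 18 alternatives. Vgll4, a competitor of YAP for TEAD, was at 25.7 CPM in control, 64.1 in mimic, log2 1.29. The upstream kinase Stk3 (5.55 CPM in control, 31.8 in mimic, log2 2.32) and the LATS inhibitor Limd1 (9.12 CPM in control, 24.6 in mimic, log2 1.34) had counts in only 6 and 9 mimic cells, and Stk3 was at 1.26 without the 3 cells with few genes. Map4k4, lower at 25.2 CPM in control, 11.9 in mimic, log2 -1.02, passed 2-fold under 10 of 18 alternatives. Tead1, with a 7-base site, was within 2-fold at 36.8 CPM in control, 25.5 in mimic, log2 -0.51.

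Compaction and polarity genes had 11 of 23 above 0 and a median of -0.06 (-0.33 to 0.14). Non-muscle myosin Myh10 was the only member past 2-fold (70.3 CPM in control, 154.4 in mimic, log2 1.12). Of 13 tight junction and blastocoel genes at 20 CPM, 12 lay below 0, with a median of -0.19 (-0.63 to -0.09). The aquaporin Aqp11 was the only member past 2-fold, 4.12-fold lower. It ranged from 0 to 126 CPM in control cells, with a median of 60.8, and from 0 to 63.96 CPM in mimic cells, with a median of 1.96, with counts in 29 of 30 and 12 of 24 cells and without overlap of the runs (45.0 to 89.3 CPM over the control runs and 13.5 to 17.7 over the mimic runs). The abundant Cldn4 (654 CPM in control, 685 in mimic, log2 0.07) and Aqp9 (374 CPM in control, 334 in mimic, log2 -0.16) were within 2-fold. Without the 3 cells with few genes, 3 of these members were past 2-fold lower.

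Of 20 genes of FGF and ERK signalling at 20 CPM 3 were higher and 3 lower past 2-fold, with a median of 0.15 (-0.28 to 0.35). Dusp10, a phosphatase of JNK and p38 kinases, was 12.4-fold lower (61.1 CPM in control and 4.95 in mimic) with counts in 21 of 30 and 6 of 24 cells, and past 2-fold under all 18 alternatives. The transcription factor Myc (124 CPM in control, 38.8 in mimic, log2 -1.66) and the FGF-responsive Etv5 (53.03 CPM in control, 23.2 in mimic, log2 -1.16) were lower, Etv5 at -0.97 without the 3 cells with few genes. Fgfr3 (13.9 CPM in control, 48.5 in mimic, log2 1.73), Braf (39.99 CPM in control, 119.6 in mimic, log2 1.56) and the ERK inhibitor Spred1 (47.6 CPM in control, 103.2 in mimic, log2 1.10) were higher, Braf at 0.76 without the 3 cells with few genes. Spry2, the most abundant of the feedback inhibitors, was at 342 CPM in control, 547 in mimic, log2 0.68.

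LIF, NODAL and BMP genes had 10 of 13 below 0 and a median of -0.30 (-0.66 to -0.03). Id3, a BMP target, was at 262 CPM in control, 150.8 in mimic, log2 -0.80, and Socs3, a feedback inhibitor of STAT3, at 129.7 CPM in control, 83.5 in mimic, log2 -0.63. Smad3 was past 2-fold higher from a low level (13.4 CPM in control, 29.6 in mimic, log2 1.08).

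Maternal and 2-cell stage transcripts were checked because they date the embryos. Of 26 two-cell activation genes 6 were at 20 CPM, with a median of 0.31 (-0.33 to 0.82), and their sum was 1483 CPM over control cells and 1996 over mimic cells. Most of the sum came from Pramel7 (944 CPM in control, 1302 in mimic, log2 0.46) and Pramel6 (294 CPM in control, 446 in mimic, log2 0.60), which are also transcribed later, whereas Tdpoz1 was 3.92-fold lower (33.8 CPM in control and 8.61 in mimic). Of the Obox homeobox family, Obox6 was at 1916 CPM in control, 1671 in mimic, log2 -0.20. Obox8, 2.23-fold lower, ranged from 28.5 to 568 CPM in control cells, with a median of 251, and from 0 to 378 CPM in mimic cells, with a median of 96.5. These multigene families share near-identical copies, so the split of reads between their members is uncertain.

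Of 40 oocyte transcripts 7 were at 20 CPM, with a median of -0.13 (-0.33 to 0.05). The zona pellucida gene Zp3 was 3.87-fold lower (66.7 CPM in control and 17.2 in mimic), with counts in 25 of 30 and 15 of 24 cells. Oog3 was at the limit (107.1 CPM in control, 52.8 in mimic, log2 -1.01, and -0.93 without the 3 cells with few genes), and Dppa3, the most abundant of them, was at 5725 CPM in control, 5229.9 in mimic, log2 -0.13. In the subcortical maternal complex 4 of 10 genes were at 20 CPM. Tle6 was past 2-fold higher (9.23 CPM in control, 24.3 in mimic, log2 1.31) but at 0.88 without the 3 cells with few genes, and Khdc3 was at 81.6 CPM in control, 45.1 in mimic, log2 -0.84. Summed levels of oocyte transcripts in the 3 cells with few genes were 11488, 12543 and 5369 CPM, against 6820.4 to 10767 CPM in control cells. Of the 8888 CPM of this list over control cells, Dppa3 held 5725 CPM and Ccnb1 2658 CPM. Dppa3 is also counted among the pluripotency factors and Ccnb1 among the mitosis and G2 genes.

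Of 36 mitosis and G2 genes 23 were below 0, with a median of -0.15 (-0.49 to -0.05), and only Bub1b of the spindle checkpoint was past 2-fold, higher at 50.4 CPM in control, 121 in mimic, log2 1.25. It was at 0.83 without the 3 cells with few genes, where no gene of this list was past 2-fold. Cyclin B1 (Ccnb1) was at 2658 CPM in control, 2147 in mimic, log2 -0.31. Of 39 DNA replication and S phase genes 24 were below 0, with 2 past 2-fold higher and 2 lower and a median of -0.10 (-0.53 to 0.03). Chaf1b, of the chromatin assembly factor that deposits histones behind the fork, was 2.61-fold lower with run levels of 119.8 to 135 CPM over the control runs and 48.3 to 49.9 over the mimic runs. E2f1 was at 23.7 CPM in control, 8.9 in mimic, log2 -1.32, Cdc6 at 504 CPM in control, 302 in mimic, log2 -0.74 and Mcm6 at 439 CPM in control, 239.7 in mimic, log2 -0.87. Rpa1 (28.7 CPM in control, 69.4 in mimic, log2 1.24) and Ccne2 (20.9 CPM in control, 43.9 in mimic, log2 1.04) were past 2-fold higher. Ccne2 was just past the limit and passed it under 11 of 18 alternatives, not without the 3 cells with few genes.

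The p53 list had a median of 0.17 (-0.17 to 0.56) over 20 genes. The ubiquitin ligase Mdm2 (111.6 CPM in control, 249.6 in mimic, log2 1.15), Perp (86.1 CPM in control, 181 in mimic, log2 1.07) and Zmat3 (12.8 CPM in control, 28.3 in mimic, log2 1.08) were past 2-fold higher, and none of these 3 was without the 3 cells with few genes (0.82, 0.91 and 0.71). Ei24 and Pmaip1 (26.2 CPM in control, 11.9 in mimic, log2 -1.08) were lower, Pmaip1 at -0.90 without these cells, and the cell cycle inhibitor Cdkn1a was at 281 CPM in control, 236 in mimic, log2 -0.25. Of 16 apoptosis regulators 3 were past 2-fold lower and none higher, with a median of -0.02 (-0.28 to 0.05). Among them were an inhibitor of caspases, Xiap (195 CPM in control, 75.4 in mimic, log2 -1.36), and the BH3-only protein Bcl2l11 (51.0 CPM in control, 21.03 in mimic, log2 -1.24). The run levels of Bcl2l11 were 0 to 119 CPM over the control runs and 8.02 to 32.7 over the mimic runs, with overlap, and it passed 2-fold under 15 of 18 alternatives, with a weakest change of -0.08. Xiap is X-linked and was past 2-fold under all 18 alternatives. The abundant Mcl1 was at 347 CPM in control, 416 in mimic, log2 0.26.

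Of 43 histone modifiers at 20 CPM 3 were past 2-fold higher and 3 lower, shares close to those of all genes, with a median of 0.02 (-0.04 to 0.11). Lower beside Rnf2 were Ezh1 (99.7 CPM in control, 28.1 in mimic, log2 -1.79), a methyltransferase of Polycomb repressive complex 2, and the heterochromatin protein gene Cbx5 (339.8 CPM in control, 165.3 in mimic, log2 -1.03). Cbx5 was at -0.95 without the 3 cells with few genes, where 2 of the histone modifiers were past 2-fold lower. Higher were the histone H3 lysine 9 methyltransferases Setdb1 (43.6 CPM in control, 113.7 in mimic, log2 1.36) and Suv39h2 (5.8 CPM in control, 24.4 in mimic, log2 1.90) and the demethylase Kdm2a (12.6 CPM in control, 26.4 in mimic, log2 1.01). The change of Suv39h2 lay between 0.06 and 2.31 over the 18 alternatives. Setdb1 ranged from 0 to 163.3 CPM in control cells, with a median of 13.7, and from 0 to 415 CPM in mimic cells, with a median of 74.3. Its runs did not overlap (19.4 to 49.4 CPM over the control runs and 94.3 to 129 over the mimic runs), and both Setdb1 and Ezh1 were past 2-fold under all 18 alternatives, whereas Kdm2a was under 11 of 18. The DNA methylation enzymes had a median of 0.16 (0.01 to 0.43) over 11 members. Tet1 was at 176.7 CPM in control, 179 in mimic, log2 0.02, Dnmt3a at 84.9 CPM in control, 83.1 in mimic, log2 -0.03, and the imprint protector Zfp57 was past 2-fold lower (63.3 CPM in control, 27.2 in mimic, log2 -1.19).

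Oxidative phosphorylation had a median of 0.09 (-0.03 to 0.36) over 79 genes, and those past 2-fold were assembly factors of complex I rather than subunits, Ndufaf2 higher (7.59 CPM in control, 20.6 in mimic, log2 1.33) and Ndufaf6 (24.6 CPM in control, 9.38 in mimic, log2 -1.30) and Ndufaf7 (112.3 CPM in control, 49.2 in mimic, log2 -1.17) lower. Glycolysis, pyruvate and TCA genes had a median of 0.05 (-0.21 to 0.18) over 29, with only the pyruvate kinase Pkm past 2-fold (8.9 CPM in control, 32.8 in mimic, log2 1.77). The change of Pkm lay between 0.18 and 2.41 over the 18 alternatives. Nucleotide synthesis and folate genes had a median of -0.16 (-0.24 to 0.10) over 29, 11 above 0 and 18 below, with Impdh2 higher in nearly all pairs as described and only Ctps2 past 2-fold (21.3 CPM in control, 9.12 in mimic, log2 -1.14). Amino acid transporters had none past 2-fold among 8 at 20 CPM and a median of -0.07 (-0.38 to 0.30).

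Of 19 cholesterol and fatty acid synthesis genes 2 were past 2-fold higher and 2 lower, and their median was -0.16 (-0.87 to 0.07). Ebp, a sterol isomerase, and the fatty acid synthase Fasn were 3.07-fold and 2.78-fold lower (189 CPM in control and 61.5 in mimic, and 159.5 CPM in control and 57.4 in mimic), and neither overlapped between runs. Insig1, which restrains sterol synthesis, was 2.95-fold higher (17.5 CPM in control and 51.6 in mimic), also without overlap of the runs (10.1 to 22.7 CPM over the control runs and 45.6 to 61.3 over the mimic runs), and past 2-fold under all 18 alternatives. The desaturase Scd2 (14.5 CPM in control, 33.3 in mimic, log2 1.15) rested on mimic cells 63 to 70, without which it lay at -0.50.

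Heat shock and ER chaperones had a median of -0.14 (-0.39 to 0.07) over 30 members, with Hsp90b1 (119.7 CPM in control, 45.5 in mimic, log2 -1.38) and Bag3 (57.7 CPM in control, 17.02 in mimic, log2 -1.70, with 17.5 to 113.8 CPM over the control runs and 1.84 to 37.8 over the mimic runs) lower, Hsf1 (24.3 CPM in control, 50.05 in mimic, log2 1.02) higher and the abundant Hsp90ab1 at 6256 CPM in control, 7537 in mimic, log2 0.27. The ATF4 response had a median of -0.07 (-0.34 to 0.12) over 21 members, with asparagine synthetase Asns higher (20.5 CPM in control, 50.8 in mimic, log2 1.27) and the seryl-tRNA synthetase Sars lower (82.9 CPM in control, 38.7 in mimic, log2 -1.08), the latter at -0.89 without the 3 cells with few genes.

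A double-stranded RNA added to cells can be sensed as foreign, so interferon genes were read separately. Of the 45 genes listed 17 had 0 counts in all 54 cells and 9 reached 20 CPM, with a sum of 393 CPM over control cells and 315 over mimic cells. None was past 2-fold higher. Ifitm2 (33.0 CPM in control, 3.4 in mimic, log2 -2.95), Oasl2 (20.2 CPM in control, 4.88 in mimic, log2 -1.85) and the toll-like receptor adaptor Ticam1 (23.6 CPM in control, 6.53 in mimic, log2 -1.71) were past 2-fold lower. The median was -0.19 (-1.18 to 0.29).

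The machinery that makes and uses microRNAs had a median of 0.04 (-0.17 to 0.20) over 30 of 35 genes. Ago2, the slicing Argonaute, was at 302 CPM in control, 312 in mimic, log2 0.05. Ago1 was lower (25.9 CPM in control, 10.03 in mimic, log2 -1.29), with counts in 17 of 30 and 8 of 24 cells, and its run levels ranged over 0 to 51.1 CPM over the control runs and 1.23 to 15.4 over the mimic runs. The decapping factor Dcp1a was 4.87-fold lower (32.3 CPM in control and 6.63 in mimic), and the terminal uridylyltransferase Tut7 past 2-fold higher (60.6 CPM in control, 129 in mimic, log2 1.08). Cnot1, Cnot7 and Cnot8 of the deadenylase complex were within 2-fold.

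The Dlk1-Meg3 domain on chromosome 12, where miR-381 is encoded, was close to silent in the polyadenylated RNA of both groups. Of 9 genes 4 had 0 counts and Ppp2r5c, at the edge of the domain, was the only gene at 20 CPM (98.5 CPM in control, 92.4 in mimic, log2 -0.09). Meg3 was at 2.2 and 1.52 CPM, with counts in 5 and 3 cells. Imprinted genes elsewhere had a median of 0.21 (0.07 to 0.41) over 15 members, with Ube3a past 2-fold higher (46.3 CPM in control, 103.9 in mimic, log2 1.15).

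**Figure D4:**
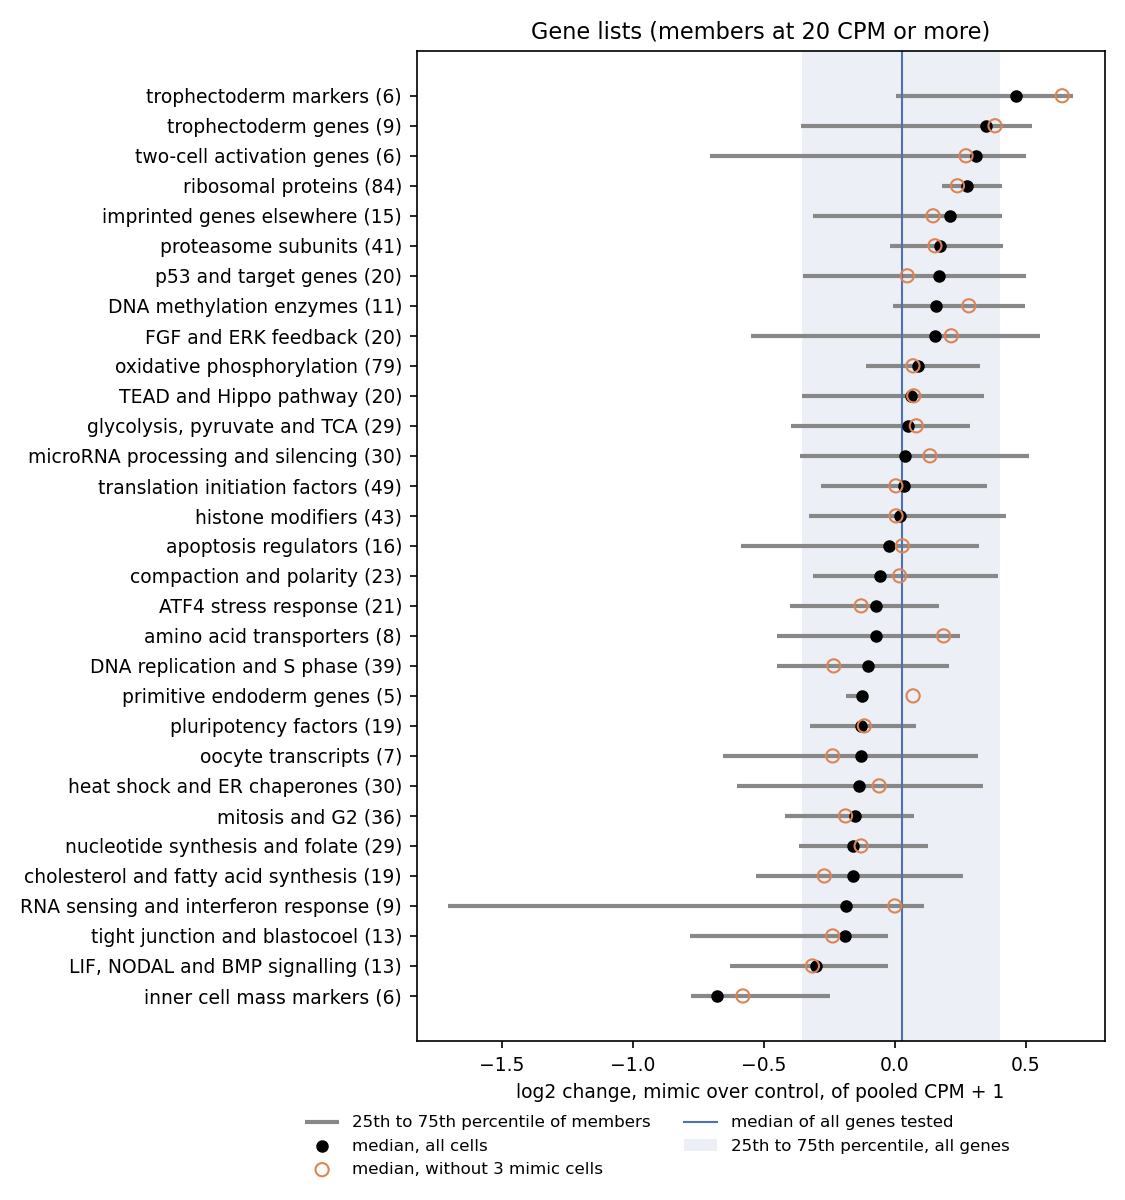
Median log2 change (filled points) and 25th to 75th percentile (grey bars) of the members at 20 CPM or more of each gene list, with the number of these members in brackets and the median without the 3 mimic cells with few genes as open circles. The blue line and band show the median of 0.03 and the 25th to 75th percentile of all 6570 genes. Ribosomal proteins lie at 0.28 over 84 members, and the markers of the inner cell mass and the trophectoderm lie at -0.68 and 0.46 over 6 members each.

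Genes with seed sites of miR-381-3p had median changes close to that of genes without a site. Of 6417 genes at 20 CPM with an annotated 3′ UTR, 259 held an 8-base site, with a median log2 change of 0.03 (25th to 75th percentile -0.33 to 0.42). The 656 genes with a 7-base site through base 8 had a median of -0.003, the 830 with a 7-base site with A 0.04, the 1215 with a 6-base site -0.02 and the 3457 without a site 0.05. Past 2-fold lower were 14 of the 259 genes with an 8-base site (5.41%) and 214 of the 3457 without a site (6.19%), and past 2-fold higher were 19 (7.34%) and 228 (6.60%). Without the 3 cells with few genes the medians were 0.09 with an 8-base site and 0.05 without a site. With mean log2 values of the cells in place of pooled counts the 8-base median was -0.14, where the median of all genes was -0.13. Among the genes with the longest 3′ UTRs, over 1866 bases, the median was 0.08 for genes with an 8-base site and -0.001 for 502 genes without a site. In the shortest class, up to 708 bases, it was -0.05 for 19 genes with an 8-base site and 0.06 for 1779 without.

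**Figure D5:**
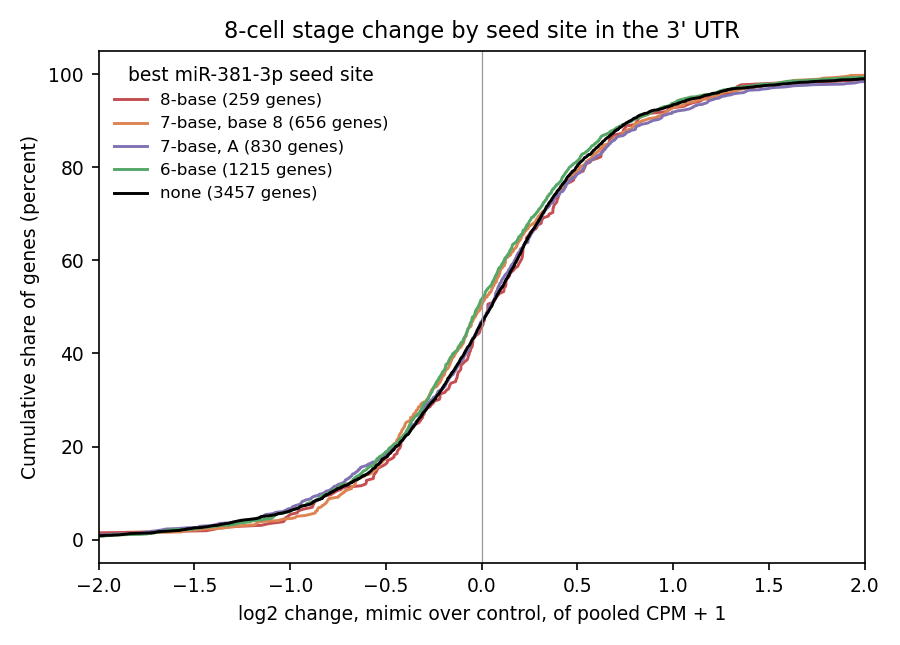
Cumulative share of genes in percent (vertical axis) by log2 change of pooled CPM + 1, mimic over control (horizontal axis, drawn from -2 to 2), for 5 classes of the best miR-381-3p seed site in the 3′ UTR. The curves of the 259 genes with an 8-base site and of the 3457 genes without a site run together, with medians of 0.03 and 0.05.

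The genes with 8-base sites that lay lowest were Id2, Mpp3, Slc16a13, Rnf2 and Eif4ebp2. Rnf2 and Eif4ebp2 were well measured, as given above. Eif4ebp2 ranged from 0 to 221 CPM in control cells, with a median of 71.3, and from 0 to 189 CPM in mimic cells, with a median of 4.89, and its runs did not overlap. Mpp3, a scaffold protein of the MAGUK family, was 11.5-fold lower (22.4 CPM in control and 1.94 in mimic), with counts in 13 of 30 and 5 of 24 cells. Slc16a13, a monocarboxylate transporter, was 7.24-fold lower (22.02 CPM in control and 3.04 in mimic), with counts in 11 and 2 cells. For these sparse genes the median cell was at 0 in both groups.

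Genes with 8-base sites also lay among those well above no change. The highest were the cAMP phosphodiesterase Pde7a (4.03 CPM in control, 36.9 in mimic, log2 2.91), the chromatin remodeller Chd2 (3.1 CPM in control, 26.8 in mimic, log2 2.76), the zinc finger gene Zfp930 (5.31 CPM in control, 33.8 in mimic, log2 2.47), the focal adhesion kinase Ptk2 (6.07 CPM in control, 27.7 in mimic, log2 2.02) and the prolactin receptor Prlr (5.99 CPM in control, 24.3 in mimic, log2 1.85). Chd2 and Ptk2 were past 2-fold under all 18 alternatives. Pde7a was at 1.399 without the 3 cells with few genes, in place of 2.91, and Zfp930 and Prlr were at 1.84 and 1.24.

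Of the genes that the study names, most were low at this stage. Tet2, the DNA dioxygenase with the 8-base site printed above, ranged from 0 to 175 CPM in control cells, with a median of 27.2, and from 0 to 433 CPM in mimic cells, with a median of 41.5. Its pooled levels were 57.5 CPM in control (55.04 to 60.0) and 61.0 CPM in mimic (58.3 to 63.8), a log2 change of 0.09. Tead1 was at -0.51 and Gata3 at 0.52, in opposite directions, and both were within 2-fold. Spp1 was at 3.67 and 2.36 CPM and Upp1 at 8.28 and 5.21 CPM, under 20 CPM in both groups, and Dppa1 had 0 counts in both. Of these 11 genes 5 were at 20 CPM and 1 of them, Nanog, was past 2-fold. The study used some of them to check the lineages it assigned in these samples, so the count is not independent evidence of a direction.

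Among the genes named above as past 2-fold, the pooled levels of the mimic runs and of the control runs did not overlap for 2310040G24Rik, Anp32a, Aqp11, Cbr2, Cbx5, Chaf1b, Chd2, Cth, Cuta, Dusp10, Ebp, Ei24, Eif4ebp2, Esd, Fasn, Fcgr3, Gm13212, Gm26917, Gm7792, Hsf1, Hsp90b1, Ifitm2, Insig1, Klf4, Lats2, Lgals3, Mrpl38, Ndufaf6, Pcbp2, Prrc1, Psmf1, Rnf2, Sars, Selenow, Setdb1, Snw1, Stat3, Tmem56, Tmem97, Ttyh2, Tut7, Vgll4 and Xiap. For the other named genes past 2-fold the runs overlapped. Of all 6570 genes, 6.96% were past 2-fold higher, and 1.63% were so without overlap of the runs. Past 2-fold lower were 6.09%, and 1.35% without overlap. Genes named by cell pairs or by detection were picked for separating the cells, which favours separate runs. The length of the list is therefore no measure of how often the runs separated. Apart from genes for which a limit is given where they are described, 3 or more of the 18 alternatives brought Ago1, Ctps2, Hsf1, Limd1, Myh10, Ndufaf7, Prlr, Psme1, Smad3, Spred1, Ube3a and Zfp57 within 2-fold or turned their direction.

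The same genes were read at the 32-cell stage, where no cell is shared with the 8-cell comparison. The study's text gives 10 µM of mimic for the 8-cell stage and 5 µM for the 32-cell stage, so stage and dose differ together. There all 39 control cells had Y-linked transcripts above Xist and all 39 mimic cells Xist alone, so sex and treatment cannot be told apart at that stage. Of 7307 genes 502 were past 2-fold higher (6.87%) and 392 lower (5.36%) in 32-cell mimic cells. At 20 CPM at both stages were 5796 genes, of which 5.9% were past 2-fold higher and 4.97% lower at the 8-cell stage, and 4.54% higher and 3.54% lower at the 32-cell stage. Higher at both stages were 39 of these genes, 11.4% and 14.8% of the 8-cell and the 32-cell genes past 2-fold in that direction, and lower at both were 27, 9.38% and 13.2%. Higher at the 8-cell and lower at the 32-cell stage were 22 genes (6.43% and 10.7%), and lower and then higher 26 (9.03% and 9.89%). Of the genes named above, Klf4 was lower at both stages (log2 -1.90 and -1.03), as were Myc (-1.66 and -1.46), Zfp57 (-1.19 and -1.23) and Etv5 (-1.16 and -2.60). Selenow was higher at both (1.39 and 1.04), as were Insig1 (1.51 and 1.04), Asns (1.27 and 1.15) and Smad3 (1.08 and 1.80). Nanog, at -1.61 in the 8-cell stage, was at 0.14 in the 32-cell stage, Rnf2 at -1.89 and -0.28, and Ei24 at -1.66 and 0.50. Whether any of these changes differed between the stages was not tested.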

How the data were processed

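Single cells of control and mimic-treated embryos were sequenced with Smart-seq2. The deposited table holds estimated counts per gene (RSEM expected counts, given by the authors as whole numbers) after FastQC, alignment with STAR 2.5.1b to mm10 and RSEM 1.3.0. The study describes a filter on genes and mitochondrial share per cell, and none was applied here. The 13 mitochondrial genes were left out, counts were summed per group or scaled to CPM per cell, and 1 was added before log2. Genes needed 20 CPM in either group, and calls mean past 2-fold. Intervals are exact Poisson (levels) and exact binomial (shares). Python 3.11.15, numpy 2.4.6, scipy 1.17.1 and edgeR 4.0.16 (TMM factor only) were used. The steps were tested on simulated counts that held counting error but no spread between embryos or runs, so that test checks the arithmetic alone. The 38 lists, the comparison and the naming rule were chosen with earlier results of these data known. Named were the study's genes, 12 genes per direction by cell pairs, 5 by detection, members past 2-fold (at most 6) and the 3 most abundant per list, and 5 per direction with 8-base sites. Some genes that meet this rule are not reported here. Alternatives changed scaling, filter, pseudocount, weighting of cells, thinning and cells included. Leaving out runs was chosen after seeing the data. 3′ UTRs were available for 20741 of 32232 symbols.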

Additional observations from a re-analysis of the deposited data

Results flagged for a closer look

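Of the named genes, 22 were past 2-fold at both stages, and 10 of these lay in opposite directions at the 8-cell and the 32-cell stage. The difference between the stages was not tested, because each group is 1 sample, and at the 32-cell stage sex and treatment cannot be told apart. Stage and dose also differ together, with 10 µM of mimic at the 8-cell and 5 µM at the 32-cell stage in the study's text. Lower in mimic cells at the 8-cell stage and higher at the 32-cell stage were 2310040G24Rik (log2 -1.65 and 1.63), Bcl2l11 (-1.24 and 1.90), Cth (-1.02 and 1.03), Lgals3 (-2.21 and 1.46) and Slc16a13 (-2.51 and 1.27). Higher and then lower were Ccne2 (1.04 and -1.14), Kdm2a (1.01 and -1.04), Pde7a (2.91 and -1.27), Setdb1 (1.36 and -1.04) and Ttyh2 (1.22 and -1.65). At the 8-cell stage Bcl2l11 passed 2-fold under 15 of 18 alternatives, Cth under 11 of 18, Ccne2 under 11 of 18 and Kdm2a under 11 of 18. Pde7a passed it under 16 of 18, with a lowest change of 0.65, and Ttyh2 under 17 of 18. 2310040G24Rik, Lgals3, Setdb1 and Slc16a13 passed it under all 18.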

How the results depend on the processing

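No paired analysis was possible because no label pairs a mimic cell with a control cell. The counts of 457 genes higher and 400 lower became 1068 and 1047 with a minimum of 5 CPM, 1854 and 2031 without a minimum, and 1208 and 1345 among cells with Y-linked transcripts above Xist, where 7 cells a group remain. With mean log2 values of the cells in place of pooled counts the lower count was 966, and the median of all genes was -0.13 in place of 0.03. Among the Y-linked cells the median absolute change was 0.71 in place of 0.38. The shares of genes with higher and lower detection, 1.02% and 2.36%, became 2.01% and 1.39% with cells of at least 5000 genes and 5.51% and 8.35% among the Y-linked cells. Among Xist cells the shares were 3.58% higher and 1.78% lower, and without a minimum 0.595% and 1.33%. The median of genes with an 8-base site was -0.14 with mean log2 values in place of 0.03. Leaving out 1 run at a time, chosen after seeing the data, gave 430 to 661 genes higher, 395 to 625 lower (625 without mimic cells 71 to 78), a median absolute change of 0.38 to 0.46, 0.925 to 2.11% of genes with higher detection (highest without mimic cells 63 to 70), 2.14 to 5.11% with lower detection (highest without mimic cells 71 to 78) and an 8-base median of -0.02 to 0.09. Of the 457 higher genes 84 (18.4%) and of the 400 lower genes 127 (31.8%) were past 2-fold under all 18 alternatives, and so were 42 named genes. These 18 kept both the minimum and the X-linked and Y-linked genes. Among cells with Y-linked transcripts the direction turned for Eif4e3 (-0.37), Eif5a2 (-4.49), Limd1 (-1.69), Ndufaf2 (-0.055), Ndufaf7 (0.024), Pmaip1 (0.052), Psmd10 (-0.74), Scd2 (-2.06) and Stat3 (-1.32). Without mimic cells 63 to 70 it turned for Eif4e3 (-0.92), Psmd10 (-0.29) and Scd2 (-0.50), and with cells of at least 5000 genes for Eif4e3 (-0.034). Eif2s3y was at 0.15 with mean log2 values, 1.92 among Xist cells and 3.85 without control cells 9 to 16, the run that holds all Y-linked control cells. Over the runs left out 1 at a time, Eif2s3y ranged from -3.54 to 3.85, Eif4e3 from -0.92 to 2.47, Psmd10 from -0.29 to 1.76 and Scd2 from -0.50 to 2.17. The cause of these turns was not tested for any gene. The median of 26 of 37 lists changed sign under some alternative. Thinning each cell to 500000 counts gave 448 genes higher and 401 lower.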
